A study of Sus scrofa with 12 samples.

Results

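FMO1, PVALB, SCRG1 and PLET1 are 4 of the 30461 gene rows measured in pig oviduct epithelial cells, and each was chosen by its own counts: clearly expressed in one state of these cells and near the lower limit of counting in the other. FMO1, PVALB and SCRG1 had their high level in cells taken fresh from the oviduct. PLET1 had its high level in spheroids, which are 3-dimensional clusters of cultured cells. The difference between fresh cells and spheroids is therefore what selected the 4 genes, and it is described below without a test. The levels in the 2 culture media, the spread among replicates and the other genes of each pathway follow.

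The study accompanies a protocol for making uniform spheroids at scale. RNA was read by 3′ mRNA sequencing, which primes on the poly(A) tail and reads near the 3′ end of each transcript, in 12 libraries of Sus scrofa cells. Fresh cells were scraped from the oviduct and taken as single cells (4 libraries). Spheroids were formed either in DMEM/F12, a basal culture medium (4 libraries, whose names carry FBS), or in a medium labelled Incubation Medium (4 libraries, whose names carry Diff). All 12 share the tissue, the epithelial cell label, the lysis reagent and the library chemistry. The labels give neither medium's composition, nor the animals' age or cycle stage, nor the days in culture, and they do not say whether replicates came from separate animals, so a p-value here measures the spread between these libraries, which may be technical. Total counts ran from 5045218 to 8603809, and each spheroid library held more than any fresh cell library (two-sided exact permutation p = 0.0286 for each medium, n = 4 per group, the smallest possible; 0.4286 between the media). Epithelial genes were present in every group, with 6 of 8 listed symbols found and summed levels of 4063 to 4742 CPM (counts scaled to a common library size) in fresh cells, 6557 to 8159 in DMEM/F12 and 4717 to 6700 in incubation medium.

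The 4 genes belong to unrelated protein families. FMO1 encodes flavin-containing monooxygenase 1, an NADPH-dependent enzyme of the endoplasmic reticulum that oxidises soft nitrogen and sulfur atoms in drugs and metabolites and can turn hypotaurine into taurine, an abundant amino sulfonic acid of oviduct fluid. PVALB encodes parvalbumin, a small EF-hand protein that binds calcium in the cytosol and is best known as a buffer in fast muscle fibres and inhibitory neurons. SCRG1 encodes a small secreted cysteine-rich protein, named from its rise in scrapie-infected brain and also known from cartilage formation, for which BST1 and the integrin subunit ITGB1 have been described as receptor partners. PLET1 encodes a glycosylphosphatidylinositol (GPI)-anchored surface protein that marks epithelial progenitors and the trophoblast of the placenta. Levels below are CPM values scaled by TMM, a method that corrects library sizes for differences in composition. Levels are compared within a gene only, since no transcript lengths were used. In bulk RNA, fewer cells of a type and less RNA per cell cannot be told apart.

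FMO1 (ENSSSCG00025009228), the monooxygenase, was read at 28.0, 57.2, 36.1 and 39.8 CPM in fresh cell replicates 1 to 4, from 161, 319, 193 and 203 counts. Replicate 2 stood highest. In DMEM/F12 spheroids the 4 libraries held 2, 2, 1 and 0.5 counts, and in incubation medium they held 3, 1.5, 2 and 0. A count of 0 allows up to 3, so 3 counts is taken as the floor, and it was equal to 0.348 to 0.403 CPM in the spheroid libraries. Every spheroid library lay at or under that floor, with 12 rounded counts over all 8 together. The fresh cell mean of 40.3 ± 12.3 CPM (SD, n = 4) was 110 times the floor per library of the DMEM/F12 group and 105 times that of the incubation medium group. The lowest fresh cell library was 70.6 times the highest floor among DMEM/F12 libraries, so the groups were far from overlapping.

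PVALB (ENSSSCG00025020542), the calcium buffer, was read at 52.6, 35.9, 45.6 and 55.7 CPM in fresh cell replicates 1 to 4, from 302, 200, 244 and 284 counts. Here replicate 2, the highest for FMO1, stood lowest. DMEM/F12 libraries held 3, 3, 2 and 3 counts and incubation medium libraries 3, 1, 3 and 2. All 8 were at or under the floor, and none was at 0, with 20 counts in all. The fresh cell mean was 47.4 ± 8.77 CPM (SD, n = 4), 129 times the floor in DMEM/F12 and 124 times the floor in incubation medium. The spheroid libraries held 1 to 3 counts, which allow more than 3, so neither value is a strict lower bound. All of its counts were whole numbers in all 12 libraries, whereas FMO1 had 2 libraries, both of spheroids, with a count that was not whole. A count that is not whole means that a read was counted in part, for example because it was shared between features.

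SCRG1 (ENSSSCG00025010209), the secreted cysteine-rich protein, was read at 486.8, 252.5, 391.5 and 390.0 CPM in fresh cells. Replicate 2 was again the lowest. In DMEM/F12 spheroids it was 2.43, 1.16, 3.31 and 1.20 CPM, from 19.5, 9.83, 24.67 and 9.67 counts. In incubation medium it was 2.62, 3.20, 1.11 and 3.09 CPM, from 22, 24.5, 9 and 23 counts. SCRG1 thus differed from FMO1 and PVALB in that all 8 spheroid libraries stood above the floor: its RNA was low there but still counted. The fresh cell mean of 380 ± 96.4 CPM was 188 times the DMEM/F12 mean of 2.03 ± 1.04 and 152 times the incubation medium mean of 2.51 ± 0.966 (SD, n = 4 each). Counts were not whole in 5 of the 8 spheroid libraries (62.5%), including all 4 of DMEM/F12, so the low level there is uncertain where reads were shared with a similar feature.

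PLET1 (ENSSSCG00025047472), the GPI-anchored progenitor marker, ran the other way. Fresh cell libraries held 1, 2, 2 and 1 counts, all at or under the floor, which was equal to 0.522 to 0.588 CPM in these shallower libraries. DMEM/F12 spheroids were read at 46.8, 121.9, 191.7 and 109.9 CPM, from 385, 1049, 1449 and 915 counts. Incubation medium spheroids were read at 2.03, 6.41, 11.8 and 9.0 CPM, from 17, 48, 96 and 67 counts. The 3 groups did not overlap at any point: fresh cells were lowest, incubation medium spheroids intermediate and DMEM/F12 spheroids highest. The DMEM/F12 mean of 118 ± 59.4 CPM was 213 times, and the incubation medium mean of 7.31 ± 4.16 CPM 13.2 times, the fresh cell floor (SD, n = 4 each). All of its counts were whole.

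**Figure D1:**
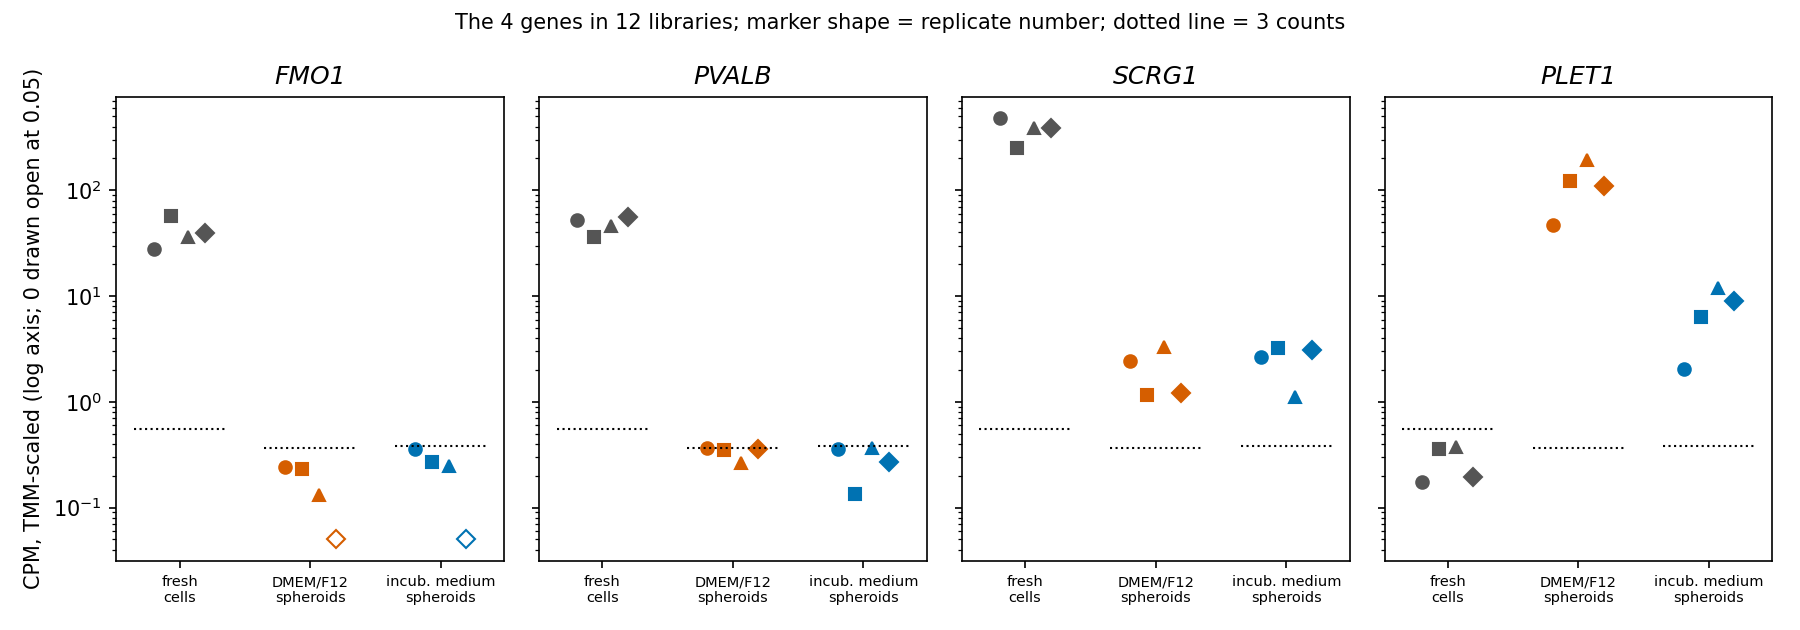
CPM (TMM-scaled, log axis) of FMO1, PVALB, SCRG1 and PLET1 in each of the 12 libraries by group, 1 point per library, shaped by replicate number, with rounded counts of 0 drawn open at 0.05 and a dotted line at 3 counts. Fresh cell points of FMO1, PVALB and SCRG1 lie between 28.0 and 486.8 CPM with spheroid points at 3.31 or lower, and PLET1 shows 3 separate levels.

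How rare this pattern was in the whole table can be counted directly. With off taken as at most 3 counts in every library of a state and on as a mean of at least 20 CPM over the libraries of the other, 2 of 30461 gene rows (0.00657%) were on in fresh cells and off in spheroids. Those rows were FMO1 and PVALB. In the other direction 8 of 30461 rows (0.0263%) were off in fresh cells and on in spheroids, 6 with a symbol and 2 without, and PLET1 had the highest mean of them at 62.4 CPM. These shares describe the selection and lend it no support. SCRG1 falls outside because its spheroid libraries held 9 to 25 rounded counts. Rows just beyond the bounds were few: the next fresh cell row with its spheroids off averaged 12.96 CPM, the next spheroid row with its fresh cells off averaged 11.2 CPM, and allowing up to 10 counts in the off state would have added 12 rows in the first direction and 14 in the second.

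**Figure D2:**
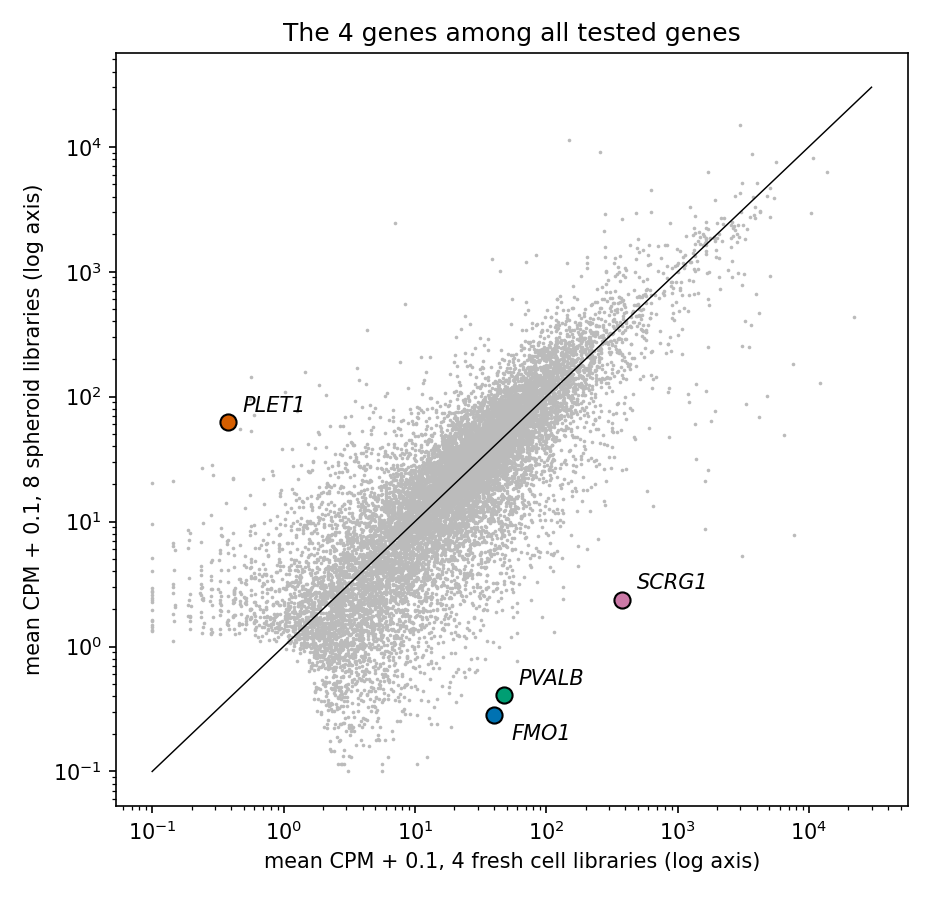
Mean CPM in the 4 fresh cell libraries (x) against mean CPM in the 8 spheroid libraries (y), 1 point per tested gene, both on log axes after a small constant was added, with the line of equal level. FMO1 and PVALB sit at the lower right at fresh cell means of 40.3 and 47.4 CPM, SCRG1 farther right at 380 CPM, and PLET1 at the upper left at a spheroid mean of 62.4 CPM.

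The media were compared with each other to ask whether the culture medium set the level of these genes in spheroids. Only PLET1 and SCRG1 could be compared, since the 8 spheroid libraries all lay at or under the floor for FMO1 and PVALB, and no fold between media is given for them. PLET1 was lower in incubation medium in 4 of 4 libraries, with a log2 fold change of -4.01 (SE 0.43, 95% confidence interval -4.92 to -3.09; edgeR quasi-likelihood test, Benjamini-Hochberg adjusted p = 2.06e-05 over 14070 genes). Expressed as a fold, DMEM/F12 spheroids had 16.1 times the PLET1 RNA of incubation medium spheroids (interval 8.54 to 30.3). The lowest DMEM/F12 library was still 3.96 times the highest incubation medium library. Among the 13131 tested genes above the floor in every spheroid library, this was the largest change between the media in either direction. PLET1 was put forward as a gene with its DMEM/F12 level already known. The p-values given for its difference between the media, the interval and its place in that order are therefore descriptions and lend the choice no support. Over all tested genes 12.3% were called lower and 12.7% higher in incubation medium.

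SCRG1 was not called between the media. Its log2 fold change was 0.32 (SE 0.42, 95% confidence interval -0.59 to 1.221; edgeR, adjusted p = 0.636), and the libraries overlapped, with 3 of 4 same-numbered pairs higher in incubation medium. The interval runs from a modest decrease to more than a doubling, at counts of 9 to 25 per library. A low level of SCRG1 was found in both media, with coefficients of variation of 51.3% in DMEM/F12 and 38.5% in incubation medium, and no difference between them was detected.

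**Figure D3:**
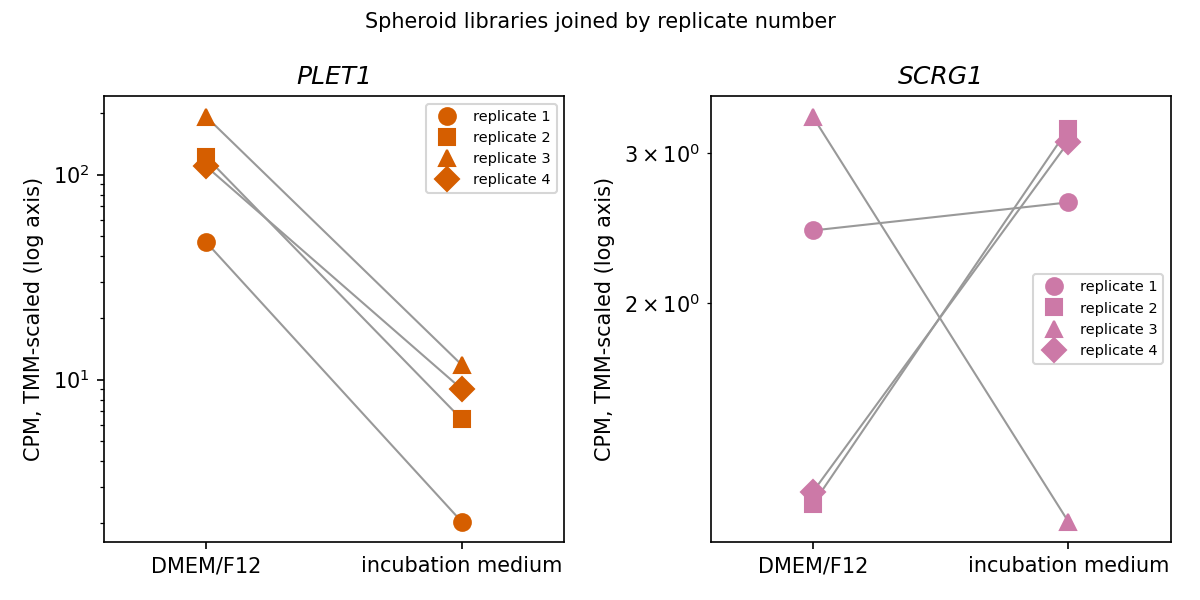
CPM (TMM-scaled, log axis) of PLET1 (left) and SCRG1 (right) in spheroids of DMEM/F12 and incubation medium, 1 symbol per replicate number, same numbers joined by a line. All 4 PLET1 lines fall, from 46.8 to 191.7 CPM down to 2.03 to 11.8 CPM, while the SCRG1 lines cross.

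Replicate numbers carried information for PLET1. Replicate 1 was lowest and replicate 3 highest in both media. The ratio of DMEM/F12 to incubation medium within a number was 23.1, 19.0, 16.2 and 12.2 for replicates 1 to 4, a narrower span than that of the levels themselves. The summed level of the multiciliated cell markers had the opposite extremes: it was highest in replicate 1 (316 CPM in DMEM/F12 and 225 in incubation medium) and lowest in replicate 3 (125 CPM in each). Whether cell makeup played a part in the spread of PLET1 was not tested. With the replicate number as a block the PLET1 difference was -4.03 on the log2 scale (edgeR, adjusted p = 5.37e-11), again a description.

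**Figure D4:**
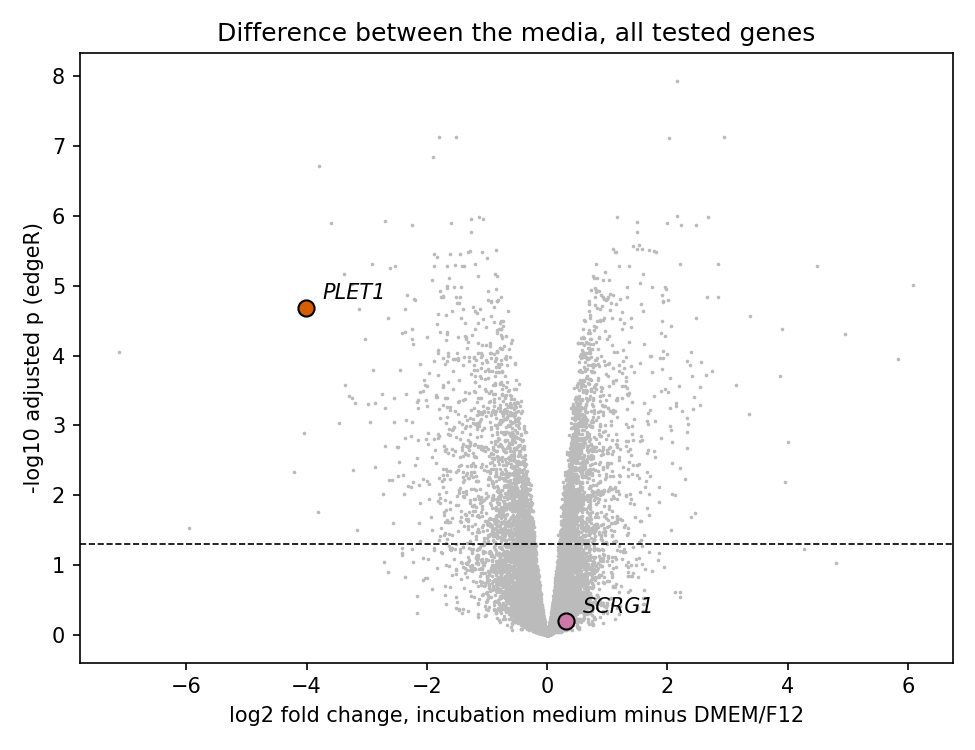
Log2 fold change of incubation medium against DMEM/F12 spheroids (x) against −log10 adjusted p (y, edgeR) for each tested gene, with PLET1 and SCRG1 marked and a dashed line at an adjusted p of 0.05. PLET1 lies at -4.01, above the line, and SCRG1 at 0.32, below it.

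All 4 genes varied more among replicates than most genes of like standing. The coefficient of variation (SD over mean) of FMO1 in fresh cells was 30.6%, that of SCRG1 25.4% and that of PVALB 18.5%. For the 7091 tested genes with at least 20 CPM in fresh cells the median was 10.1%, with a tenth-to-ninetieth percentile range of 4.70 to 21.1%, so FMO1 and SCRG1 lay beyond that range and PVALB within it. PLET1 varied by 50.5% in DMEM/F12, where the median of 6925 genes was 9.01% and the range 4.07 to 19.5%. Fresh cell replicate 2 held the highest FMO1 and the lowest PVALB and SCRG1. It also had the lowest summed secretory cell markers, 21604 CPM against 29723 to 33374 in the other 3. Its sums were lowest too for multiciliated cells (1100 against 1130 to 1255 CPM), skeletal muscle (5.56 against 6.73 to 9.75) and leukocytes (10.58 against 10.66 to 14.8). Its epithelial, smooth muscle and endothelial sums were the highest, at 4742, 337 and 57.4 CPM. The part of these differences in the values of the members was not tested.

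The 8 rows that were off in fresh cells and on in spheroids were chosen by their mean over both media, so a row could reach that level through 1 medium alone, and their levels are given as a description. DKK3, a secreted member of the dickkopf family, averaged 43.6 CPM in DMEM/F12 and 3.13 in incubation medium. CSF2, the cytokine GM-CSF, averaged 48.5 and 7.68 CPM. UABP-2 averaged 49.1 and 4.48 CPM, and single spheroid libraries ranged from 2.03 to 117.9 CPM. Like PLET1, these 3 reached the bound through DMEM/F12 only. PI3, the protease inhibitor elafin, averaged 27.0 and 82.2 CPM, and single spheroid libraries ranged from 3.36 to 186.1 CPM. PI3 was not called between the media (edgeR, adjusted p = 0.224), and its counts were not whole in 66.7% of the 12 libraries. ISG20, an interferon-induced exonuclease, averaged 48.9 and 56.9 CPM.

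Which genes followed the members most closely was measured by Pearson's r of log2 CPM (prior count 2) over the 12 libraries, among 7074 named genes with a mean of at least 10 CPM. These libraries fall into 2 states, so any gene that differs between the states and is steady within each scores high: 441 genes exceeded 0.95 with FMO1, 491 with PVALB, 426 with SCRG1 and 83 with PLET1. FMO1 was followed most closely by HSPH1 (r = 0.996), a heat shock protein of 1352 CPM in fresh cells and 62.7 and 58.4 in the media, and then by EGR1, the immediate early transcription factor (0.994), ANKRD42 (0.993) and KLHL15 (0.992). PVALB was followed by GLT8D2 (0.997), the claudin CLDN10 (0.995), EGR1 (0.995) and CNPY3 (0.995). CLDN10 had 403 CPM in fresh cells and 27.9 and 24.9 in DMEM/F12 and incubation medium.

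SCRG1 was followed by CFAP69 (r = 0.993), MAP7 (0.992), CFAP52 (0.991) and CFAP210 (0.989), of which the 3 CFAP genes encode cilia and flagella associated proteins and MAP7 binds microtubules. CFAP52 had 89.1 ± 11.6 CPM in fresh cells, 5.26 ± 1.64 in DMEM/F12 and 5.98 ± 0.852 in incubation medium (SD, n = 4 each). PLET1 was followed by the membrane metalloproteinase MMP15 (0.987), the intermediate filament gene NES (0.987), MARCKSL1 (0.986) and the junction protein gene F11R (0.986). NES had 2.94 ± 0.835, 39.1 ± 11.1 and 12.1 ± 3.07 CPM in fresh cells, DMEM/F12 and incubation medium, the same order of groups as PLET1. Over the 8 spheroid libraries alone the closest were MARCKSL1 (0.991), NEXN (0.988), STMN1 (0.987) and the claudin CLDN6 (0.987), which averaged 565 CPM in DMEM/F12 and 200.1 in incubation medium. With Spearman's rho in place of Pearson's r, 0 of the 4 named genes remained for each member over 12 libraries, and 1 of 4 for PLET1 over 8.

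The pathways around the 4 genes were followed through 11 lists, with 94 tested rows in all. Among them, 39 were called higher (41.5%) and 34 lower (36.2%) in DMEM/F12 spheroids than in fresh cells, against 35.1% and 35.7% of all tested genes. In incubation medium spheroids 41 were higher (43.6%) and 35 lower (37.2%) than in fresh cells, against 35.8% and 35.8%. Between the media 10 were higher (10.6%) and 14 lower (14.9%) in incubation medium, close to the background of 12.7% and 12.3%. With the replicate block the higher count was 16, while the count over all tested genes rose from 1791 to 2329. The lower count was 8 without DMEM/F12 replicate 2, incubation medium replicate 2 or incubation medium replicate 3. In those runs the lower count over all tested genes was 1456, 1348 and 1419, from 1731. Both comparisons with fresh cells share the same fresh cell libraries, and over all tested genes the median log2 fold change was -0.01 in each.

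Relatives of FMO1 were counted in spheroids as well as in fresh cells. FMO4, a relative of less well known substrates, was at 21.4 ± 2.09 CPM in fresh cells, 18.1 ± 4.85 in DMEM/F12 and 16.3 ± 3.76 in incubation medium (SD, n = 4), and was called in no comparison. FMO5 averaged 9.96, 10.7 and 6.94 CPM and was called lower in incubation medium than in fresh cells (log2 fold change -0.52, adjusted p = 0.0480) and than in DMEM/F12 (-0.62, adjusted p = 0.0477). Both FMO5 calls were at the edge: each of 8 libraries, left out alone, ended the first (fresh 1 to 3, DMEM/F12 2 and 3, incubation medium 2 to 4; log2 fold changes -0.54 to -0.40), and these with DMEM/F12 replicate 1 ended the second (-0.66 to -0.47). Testing without the filter on low counts ended both (-0.46 and -0.63), and fitting only the groups compared ended the second (-0.62). The median log2 fold change of the 3 tested genes of the family was -0.24 in DMEM/F12 and -0.52 in incubation medium against fresh cells.

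In taurine metabolism, 3 of 8 tested genes rose and 3 fell in DMEM/F12 against fresh cells, and 4 rose and 3 fell in incubation medium (median log2 fold changes -0.15 and 0.42). Over all tested genes 35.1 to 35.8% went each way in these comparisons. CDO1, the dioxygenase that oxidises cysteine at the head of the pathway, fell from 238 ± 96.3 CPM in fresh cells to 32.5 ± 14.1 in DMEM/F12 and 29.7 ± 13.3 in incubation medium (log2 fold changes -2.87 and -3.00, adjusted p = 2.44e-05 and 1.70e-05). SLC6A6, the taurine transporter of the cell membrane, rose from 3.89 ± 1.39 to 65.4 ± 7.72 and 101 ± 15.6 CPM (log2 fold changes 4.06 and 4.69, adjusted p = 7.01e-10 and 1.76e-10), and was higher again in incubation medium than in DMEM/F12 (0.63, adjusted p = 0.00527). GCLC, the catalytic subunit that starts glutathione synthesis from cysteine, averaged 21.5 CPM in fresh cells and 17.4 in DMEM/F12 without passing the test, and rose to 52.4 in incubation medium (log2 fold change 1.28 against fresh cells, adjusted p = 2.29e-06). ADO, which makes hypotaurine from cysteamine, averaged 27.9, 28.1 and 30.5 CPM and was called in no comparison. Low FMO1 and CDO1 RNA thus stood beside high SLC6A6 RNA in both media.

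**Figure D5:**
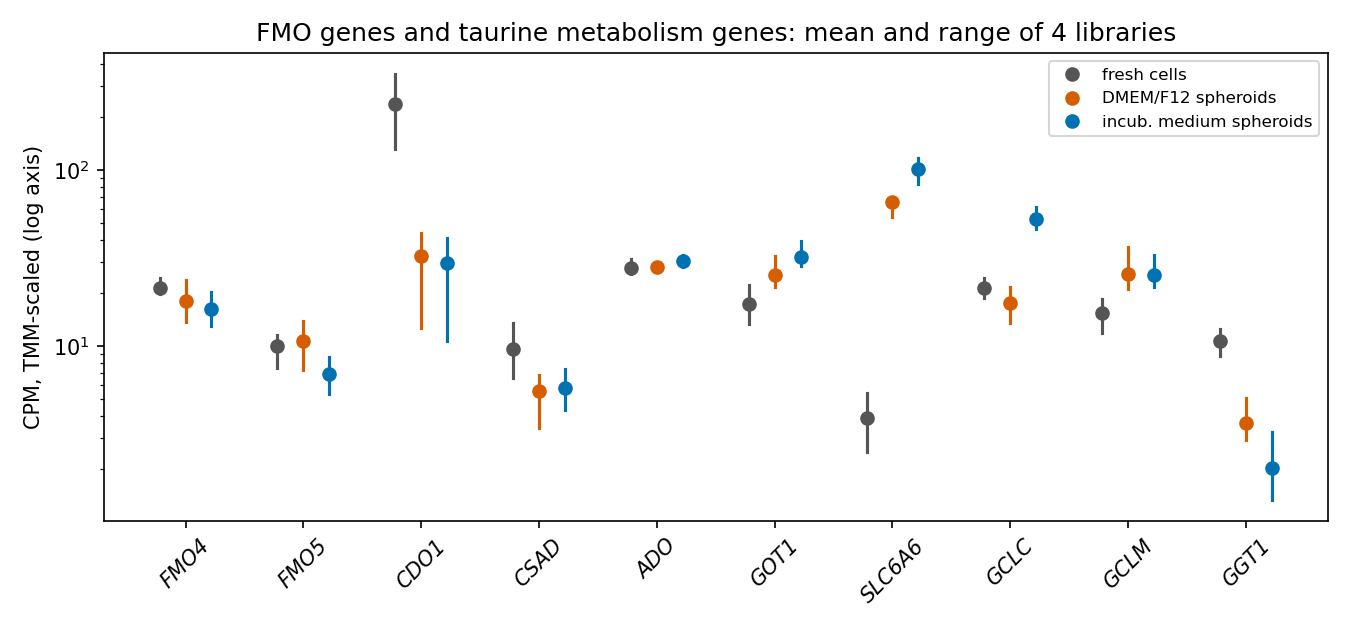
CPM (TMM-scaled, log axis) of relatives of FMO1 and of taurine metabolism genes with a mean of at least 5 CPM in the 3 groups, points at the mean and bars from the lowest to the highest library (n = 4). CDO1 is lower in both media than in fresh cells, at 32.5 and 29.7 against 238 CPM, and SLC6A6 is higher in both, at 65.4 and 101 against 3.89 CPM.

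Of 10 tested genes of microsomal xenobiotic oxidation, 6 rose and 2 fell in DMEM/F12 and 7 rose and 2 fell in incubation medium, where 35.1 and 35.7% and then 35.8 and 35.8% of all tested genes did (median log2 fold changes 0.49 and 0.73), and between the media 3 were higher and 0 lower in incubation medium (edgeR; 0 lower at an unadjusted p under 0.05 and 0 by DESeq2). MGST1, a membrane glutathione transferase, went from 313 ± 19.5 CPM in fresh cells to 387 ± 35.9 in DMEM/F12 and 679 ± 18.1 in incubation medium (log2 fold changes 0.30 and 1.12, adjusted p = 0.00343 and 2.34e-08). CYB5A, cytochrome b5, fell from 351 ± 58.2 to 175 ± 36.9 and 147 ± 15.2 CPM (log2 fold changes -1.0 and -1.25, adjusted p = 2.80e-05 and 3.22e-06). AHR, the receptor for aromatic compounds, fell from 67.1 to 34.0 and 28.6 CPM (log2 fold changes -0.98 and -1.23, adjusted p = 4.65e-05 and 5.74e-06). Its partner ARNT averaged 35.9 CPM in fresh cells and 34.8 in DMEM/F12 and rose to 64.3 in incubation medium (log2 fold change 0.84, adjusted p = 3.72e-06).

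Of the other small EF-hand calcium buffers, 3 were near 0 in every group and 1 was counted in fresh cells. Oncomodulin (OCM), calbindin (CALB1) and calretinin (CALB2) had means of at most 0.0448 CPM and were not tested. S100G, the vitamin D dependent calbindin, averaged 2.86 CPM in fresh cells, where every library (1.87 to 4.87 CPM) lay above the floor. In DMEM/F12 it averaged 1.07 ± 1.56 CPM (SD, n = 4). Single DMEM/F12 libraries ran from 0.120 CPM, under the floor, to 3.41, so that mean rested on uneven replicates. In incubation medium it was at 0 in all 4 libraries. It passed the test against fresh cells in incubation medium (adjusted p = 0.00103) and not in DMEM/F12 (0.107), and passed between the media (0.0297) except without incubation medium replicate 2 or 3 (highest adjusted p 0.0539).

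Among the other EF-hand proteins, 18 rows were tested, of which 5 rose and 8 fell in DMEM/F12 and 5 rose and 9 fell in incubation medium (median log2 fold changes -0.21 and -0.25). Between the media 2 were higher and 3 lower in incubation medium. The shares over all tested genes were 35.1 to 35.8% each way against fresh cells and 12.7% and 12.3% between the media. CETN2, a centrin of centrioles and basal bodies, fell from 397 ± 26.7 CPM to 97.1 ± 14.1 and 99.7 ± 14.2 (log2 fold changes -2.03 and -1.99, adjusted p = 3.12e-09 and 3.65e-09). SDF4, a calcium binder of the Golgi, averaged 303 and 286 CPM in fresh cells and DMEM/F12 and fell to 208 in incubation medium (log2 fold change -0.54 against fresh cells, adjusted p = 0.00296).

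Of 19 tested calcium pumps and channels, 10 rose and 6 fell in each medium against fresh cells, where 35.1 to 35.8% of all tested genes went each way (median log2 fold changes 0.21 and 0.30), and 3 were higher and 3 lower in incubation medium than in DMEM/F12. MCU, the mitochondrial calcium uniporter, rose from 43.5 ± 9.55 CPM to 197 ± 10.4 and 174 ± 13.3 (log2 fold changes 2.18 and 2.0, adjusted p = 3.83e-09 and 7.95e-09). ORAI1, the store-operated calcium channel, rose from 82.3 to 145 and 106 CPM (log2 fold changes 0.81 and 0.36, adjusted p = 2.61e-07 and 0.000580) and was lower in incubation medium than in DMEM/F12 (-0.45, adjusted p = 0.000528). ATP2B1, a plasma membrane calcium pump, fell from 120 to 90.3 and 91.7 CPM (log2 fold changes -0.41 and -0.39, adjusted p = 0.00234 and 0.00340). ATP2A2, the pump that loads the endoplasmic reticulum, averaged 136, 157 and 172 CPM. It was called higher in incubation medium than in fresh cells (0.34, adjusted p = 0.0196) but not without fresh replicate 4 or incubation medium replicate 3 (0.29 in each case), and it was not called in DMEM/F12.

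The described SCRG1 receptor partner ITGB1 rose in both media. It went from 118 ± 10.1 CPM in fresh cells to 435 ± 84.9 in DMEM/F12 and 321 ± 8.94 in incubation medium (log2 fold changes 1.88 and 1.44, adjusted p = 6.94e-09 and 7.72e-08), and was lower in incubation medium than in DMEM/F12 (-0.44, adjusted p = 0.0115). BST1 was not analysed here. ITGB1 is the beta subunit of many integrins, receptors by which epithelium holds on to matrix.

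Genes of cartilage formation, the process SCRG1 is known from, were mostly near the floor. Of 12 rows found, 5 were tested, among which 1 rose and 4 fell in DMEM/F12 and 0 rose and 4 fell in incubation medium (edgeR; 0 rose at an unadjusted p under 0.05 and 0 by DESeq2; median log2 fold changes -1.29 and -1.60). Among all tested genes 35.1 to 35.8% went each way. SOX9, the regulator of chondrocyte fate that is also active in duct epithelia, rose from 56.3 ± 5.92 to 192 ± 71.3 CPM in DMEM/F12 (log2 fold change 1.77, adjusted p = 2.27e-05), was at 78.4 ± 20.6 in incubation medium, and was lower there than in DMEM/F12 (-1.29, adjusted p = 0.00172). SOX6 fell from 43.6 to 8.34 and 10.9 CPM (log2 fold changes -2.38 and -2.0, adjusted p = 1.78e-07 and 7.70e-07), and SOX5 from 18.0 to 7.37 and 5.93 CPM (-1.29 and -1.60, adjusted p = 1.05e-06 and 1.49e-07). MATN2, a matrix adaptor protein, fell from 28.4 to 12.4 and 16.7 CPM (-1.19 and -0.76, adjusted p = 3.04e-05 and 0.00117). The cartilage collagen COL2A1 averaged 1.23 CPM in fresh cells and was not tested.

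PLET1 needs a GPI anchor to stay on the membrane, and the enzymes that build it were called in both directions against fresh cells. Of 19 tested genes, 7 rose and 7 fell in DMEM/F12, 9 rose and 6 fell in incubation medium (median log2 fold changes 0.10 and 0.29), and between the media 0 were called by edgeR or by DESeq2, with 5 higher and 0 lower in incubation medium at an unadjusted p under 0.05. PLET1 itself differed 16.1-fold between the same libraries. Against fresh cells 35.1 to 35.8% of all tested genes went each way. PIGS, PIGA and PIGP were called lower in both media. Their log2 fold changes were -1.83, -1.62 and -1.22 in DMEM/F12 and -1.30, -1.65 and -1.06 in incubation medium. The 4 genes of highest mean CPM follow. GPAA1, a subunit of the transamidase that attaches the anchor, rose from 121 ± 12.8 CPM to 152 ± 6.64 and 145 ± 9.32 (log2 fold changes 0.33 and 0.27, adjusted p = 0.00325 and 0.0115). PIGC, of the first synthesis step, rose from 76.5 to 97.5 and 109 CPM (0.35 and 0.51, adjusted p = 0.00206 and 7.89e-05). DPM1, a subunit of the mannose donor synthase, rose from 54.4 to 72.4 and 78.9 CPM (0.41 and 0.54, adjusted p = 0.00159 and 0.000177). PGAP2, which remodels the anchor's lipid, averaged 69.5, 84.8 and 103 CPM. It was called higher in incubation medium (0.57, adjusted p = 0.000498) and in DMEM/F12 (0.29, adjusted p = 0.0400), the last not without fresh replicate 1 or 3 or DMEM/F12 replicate 3 or 4 (0.21 to 0.29), with a filter at a mean of 10 counts (0.26) or with only the groups compared (0.29).

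Genes that PLET1 is usually read alongside, those of epithelial progenitors and trophoblast, split. Of 9 rows found, 4 were tested, with 2 up and 2 down in DMEM/F12 and 1 up and 2 down in incubation medium (median log2 fold changes -1.55 and -1.58). Of all tested genes 35.1 to 35.8% went each way. KRT15, a keratin of basal and progenitor epithelium, had the order of groups that PLET1 had, at 56.0 ± 10.9 CPM in fresh cells, 335 ± 77.4 in DMEM/F12 and 97.2 ± 18.3 in incubation medium. It rose against fresh cells in both media (log2 fold changes 2.58 and 0.79, adjusted p = 2.17e-08 and 0.00112) and was lower in incubation medium than in DMEM/F12 (-1.79, adjusted p = 1.21e-05). LGR5, a stem cell receptor of the Wnt pathway, fell from 47.9 ± 2.41 to 2.67 ± 0.932 and 3.46 ± 0.468 CPM (-4.16 and -3.78, adjusted p = 2.02e-10 and 3.85e-10), and its relative LGR6 from 5.65 to 0.44 and 0.50 CPM (-3.66 and -3.43, adjusted p = 2.73e-06 and 4.09e-06). The trophoblast regulators CDX2, ELF5 and TFAP2C had means of at most 1.02 CPM in every group and were not tested.

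Of 6 tested wound-edge and squamous epithelium genes (6 of 16 symbols found), 4 rose and 2 fell in DMEM/F12 and 4 rose and 1 fell in incubation medium, again where 35.1 to 35.8% of all tested genes went each way (median log2 fold changes 1.5 and 1.5). SFN, the epithelial 14-3-3 protein, rose from 1.17 ± 0.727 CPM to 98.1 ± 39.3 and 54.6 ± 20.6 (log2 fold changes 6.34 and 5.50, adjusted p = 1.85e-08 and 9.18e-08). PLAU, the urokinase protease, rose from 7.62 ± 3.81 CPM to 193 ± 39.0 and 184 ± 33.7 (4.64 and 4.57, adjusted p = 4.76e-09 and 5.38e-09). HBEGF, a growth factor of the EGF family, fell from 179 ± 44.9 to 53.9 ± 5.92 and 37.7 ± 5.29 CPM (-1.73 and -2.25, adjusted p = 2.41e-07 and 2.37e-08). SFN and HBEGF were also called lower in incubation medium than in DMEM/F12 (-0.84 and -0.51, adjusted p = 0.0344 and 0.0297). Each of these calls ended when any one of 5 libraries was left out: DMEM/F12 replicates 2 and 3 and incubation medium replicates 1, 2 and 4 for SFN (-0.89 to -0.53; also -0.84 with only the groups compared), and DMEM/F12 replicates 2 and 3 and incubation medium replicates 1, 3 and 4 for HBEGF (-0.53 to -0.45).

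Because PVALB is best known from muscle and neurons, SCRG1 from cartilage and brain, and a scrape of the oviduct lining can carry other cells, markers of 9 other cell types or states were summed in each library. Multiciliated cell markers, with 6 of 10 symbols found, summed to 1100 to 1255 CPM in fresh cells, 125 to 316 in DMEM/F12 and 125 to 225 in incubation medium. Fibroblast markers (5 of 9 found) summed to 756 to 1128, 128 to 189 and 80.5 to 145 CPM, so both sums fell along with FMO1, PVALB and SCRG1. Most of the fibroblast sum was FBLN1, at 855, 136 and 98.2 CPM. COL1A2 and COL3A1 were also called lower in both media. COL1A1 averaged 31.1, 21.9 and 3.44 CPM and was not called in DMEM/F12 (edgeR, adjusted p = 0.320), and PDGFRA averaged 1.11, 1.76 and 0.286. Secretory cell markers (3 of 7 found) summed to 21604 to 33374, 5236 to 9965 and 22233 to 26173 CPM, and within them OVGP1 fell from 22241 CPM in fresh cells to 400.0 and 471 while SPP1 rose from 2991 to 7499 and 22641. Skeletal muscle markers (4 of 7 found) summed to 5.56 to 9.75, 1.68 to 2.21 and 0.400 to 0.716 CPM, with CKM and TNNT3 at or under the floor in all fresh cell libraries. TNNC2 fell from 4.97 CPM in fresh cells to 0.0600 in DMEM/F12 and 0.0968 in incubation medium (edgeR, adjusted p = 4.37e-07 and 6.34e-07). ACTA1 averaged 2.21, 1.83 and 0.406 CPM and was not called in DMEM/F12 (edgeR, adjusted p = 0.394). Neuron and glia markers (8 of 10 found) summed to 17.4 to 31.7, 87.4 to 145 and 97.8 to 179 CPM, led in spheroids by UCHL1 at 109 and 125 CPM, while NCAM1 averaged 13.3, 4.74 and 8.87, with SOX10 and CDH19 at or under the floor in every fresh cell library and CDH19 at 0 in all 12.

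Smooth muscle markers (6 of 7 found) summed to 207 to 337 CPM in fresh cells, 1048 to 1191 in DMEM/F12 and 228 to 533 in incubation medium, and nearly all of that sum was TAGLN, an actin-binding gene, at 266, 1120 and 380 CPM. The others did not follow it: CNN1 fell from 5.22 to 0.867 and 0.847 CPM and SYNPO2 from 4.00 to 0.0595 and 0.223 CPM (edgeR, adjusted p = 0.000281, 0.000262, 1.34e-05 and 5.14e-05), and ACTA2 averaged 1.68, 1.38 and 1.63 CPM. Endothelial markers (5 of 7 found) summed to 41.6 to 57.4, 136 to 252 and 91.2 to 148 CPM, with VWF not above the floor in fresh cells. Within them CDH5 averaged 11.4, 108 and 43.0 CPM and KDR 20.9, 74.1 and 60.6, whereas PECAM1 fell from 15.1 to 7.91 and 8.05 CPM (edgeR, adjusted p = 2.01e-05 and 2.48e-05) and TEK averaged 1.51, 0.452 and 0.511. Mesothelial markers (3 of 5 found, with BNC1 at 0 in all 12) summed to 274 to 333, 283 to 435 and 198 to 264 CPM, of which WT1 averaged 214, 159 and 126 and UPK1B 98.4, 177 and 97.8. Leukocyte markers (5 of 8 found, with MS4A1 not above the floor in fresh cells) summed to 10.6 to 14.8, 4.56 to 7.67 and 3.09 to 7.74 CPM. Within them PTPRC averaged 7.01, 2.54 and 1.21 CPM, whereas CD14 averaged 2.66, 3.23 and 4.54. The part of any of these cell types in the levels of the 4 genes was not tested.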

How the data were processed

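RNA of 12 pig oviduct libraries was measured by 3′ mRNA sequencing. The authors deposited a table of expected counts and of CPM, per the file headers, in which 19.1 to 20.5% of a library's nonzero counts were fractional. Each deposited CPM equalled the count over the library total to within 5e-06. Per the submitters' processing notes, fastp 0.24.0, STAR 2.7.11, SAMtools 1.22.1 and featureCounts of Subread 2.1.1 were used; the genome build and their settings are not given in the sources used here. Of 30553 rows, 92 spike-in sequences (at most 0.000614% of a library's counts) were left out. Gene names are those of the deposited table, and 0 identifiers matched the gene tables at hand, so no position is given.

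The design had assumed raw counts, so expected counts were rounded before edgeR 4.0.16 (R 4.3.3) was run: filterByExpr by group, TMM, and its quasi-likelihood test with all 12 libraries fitted together, Benjamini-Hochberg adjustment over 14070 genes and a threshold of 0.05. CPM values printed here use TMM-scaled library sizes. A level is given as a multiple of a floor of 3 counts per library where a group's libraries were all at or under it. That floor is what a count of 0 allows, so it is not a strict bound where libraries held 1 to 3 counts. Intervals and floors cover counting or replicate error only: reads copied by PCR are not independent molecules. The fit was tested on simulated counts with 200 changed genes.

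The 4 genes, the 11 pathway lists and the 10 marker lists were chosen with earlier results of these data known, so no list was tested as a set. Named were the 4 genes, all genes of lists of up to 5, otherwise the 4 tested genes of highest mean CPM (2 at most for marker lists), the 4 genes most like each of the 4, and the 6 switching rows of highest level with a symbol. COL2A1, PIGS, PIGA, PIGP, CDX2, ELF5, TFAP2C, COL1A2, COL3A1, PDGFRA, TNNC2, ACTA2, SYNPO2, PECAM1, TEK and the markers not above the floor were named after their values were seen. Some genes that the rule would name are not reported here. Same-numbered libraries deviated together in every pair (correlations 0.226 to 0.284, 0.196 to 0.293 and 0.394 to 0.516 in the 3 comparisons; other pairs -0.318 to 0.0233), so the numbers were taken to pair the samples, on the data and not on the labels. The fit without the block was kept as the main one. Alternatives were other size factors, library totals, other filters, DESeq2 1.42.0, only the groups compared, the replicate block, other rounding, other bounds for on and off, and leaving out each library.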

Additional observations from a re-analysis of the deposited data

Results flagged for a closer look

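The difference of PLET1 between the media, -4.01 on the log2 scale, is the difference between its changes from fresh cells in the 2 media, and it was tested by edgeR (adjusted p = 2.06e-05, lower in incubation medium in 4 of 4 libraries). PLET1 was chosen with its DMEM/F12 level known, so that p-value is a description. In DMEM/F12 spheroids the lowest PVALB library stood apart from the other 3, with a gap of 0.836 of the group's whole range. These libraries held 3, 3, 2 and 3 counts, all at or under the floor, so the gap is 1 count. Chance alone sets apart about 1 in 20 groups by this measure, a rate that was not worked out for counts as small as these. In all, 12 combinations of gene and group were examined.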

How the results depend on the processing

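PLET1 kept its call between the media in each alternative run, with log2 fold changes of -4.35 to -3.67 when a library was left out and -4.09 to -4.01 otherwise (highest adjusted p 0.000318). SCRG1 was never called (0.12 to 0.64). A floor of 3 counts over a group in place of each library gave no value for FMO1, PVALB or PLET1, since the groups at the floor held 5 to 11 counts. Rows off in fresh cells and on in spheroids numbered 3 at 50 CPM and 1 at 0 counts. In the other direction they numbered 5 at 10 CPM, and 0 at 50 CPM or at 0 counts, where FMO1 and PVALB no longer qualified. Leaving out a library gave 6 to 11 and 2 to 3. Between the media, pathway genes called higher numbered 16 with the replicate block. Those called lower numbered 8 when only the groups compared were fitted and 8 to 13 when a library was left out. Over all tested genes, those called higher rose from 1791 to 2329 with the block. Those called lower went from 1731 to 1665 with only the groups compared, and to 1348 to 1758 when a library was left out. The cause of these shifts was not tested. Apart from the pathway genes called higher between the media, the block moved no count by over 1.5 times, and it ended no call of a named gene. Of the calls of named pathway genes, those kept with each library left out in turn numbered 27 of 28 in DMEM/F12 against fresh cells, 29 of 31 in incubation medium against fresh cells and 8 of 13 between the media. Counts limit SCRG1 in spheroids, at 9 to 25 counts, and FMO1 and PVALB there, at 0 to 3.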
